A study of Mus musculus with 2 samples.

Results

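The miRNAs described here are those whose genes lie inside the Hox clusters of the mouse genome: Mir10a and Mir196a-1 in the Hoxb cluster, Mir10b in the Hoxd cluster, Mir196a-2 and Mir615 in the Hoxc cluster and Mir196b in the Hoxa cluster. They are 6 of the 1174 miRNA hairpins with a Mir symbol in the GENCODE annotation of GRCm38. They were chosen by their position and name, not by any measured value, although earlier results of these data were known. A sequenced tag, that is a distinct small RNA sequence with its number of reads, was counted for a hairpin when it matched it without mismatch. All 6 hairpins had at least 1 read in the AICAR library and 5 of them in the DMSO library, whereas 814 of the 1174 hairpins had reads in either library.

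The small RNA came from J1 cells, a mouse embryonic stem (ES) cell line, adapted to gelatin and grown in serum replacement medium with LIF. For its real-time PCR cultures the paper names a medium with serum and LIF instead. The treated cells received AICAR, an activator of AMP-activated protein kinase, at 1 mM, and the control cells received the same volume of DMSO, the solvent of AICAR. Both were sampled at 24 h, and 1 library was sequenced per condition, so no difference below has a replicate check. The DMSO library held 18870345 clean reads and the AICAR library 21091226, so that 1 read corresponds to 0.0530 and 0.0474 RPM (reads per 1000000 clean reads). The intervals given below cover the counting error of reads only, and not the spread between cultures. PCR copies of a molecule are counted as separate reads, so for molecules these intervals may be too narrow.

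Hox genes are arranged in 4 clusters that encode the transcription factors of the body axis, and the order of the genes along each cluster follows the order in which they are switched on from head to tail. The miR-10 and miR-196 genes sit between particular Hox genes in several clusters, as copies left by the ancient duplications of the cluster, whereas miR-615 lies in the Hoxc cluster alone. miR-10 and miR-196 are known to repress Hox mRNAs, and undifferentiated ES cells keep the Hox clusters largely silent under Polycomb repression.

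Mature miRNAs recognise their targets mainly through bases 2 to 8, the seed, which is in capitals in the sequences below. They are shown because the relatives share a seed and differ by a single base elsewhere, which decides how reads can be assigned. The sequences are those of RefSeq for GRCm38.p6.
miR-10a-5p: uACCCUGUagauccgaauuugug
miR-10b-5p: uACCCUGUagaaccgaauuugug
miR-196a-5p: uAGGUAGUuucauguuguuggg
miR-196b-5p: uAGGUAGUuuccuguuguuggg
miR-196a-1-3p: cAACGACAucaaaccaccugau
miR-615-3p: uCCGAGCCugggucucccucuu

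Thus the 5p arms fall into 2 seed groups. Within each group the relatives differ at position 12, counted from 1 at the 5′ end, which lies outside the seed. The change is T12A from miR-10a-5p to miR-10b-5p and A12C from miR-196a-5p to miR-196b-5p, where the first letter is the base of the former. Mir196a-1 and Mir196a-2 encode the same miR-196a-5p, so most of its reads cannot be assigned to a single Hox cluster, whereas the 3p arms of these hairpins differ.

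In their genomic setting, all hairpins but Mir196b lie on the plus strand. Mir10a (chr11:96317165-96317274) lies between Hoxb5 and Hoxb4, 993 bp from Hoxb4, and overlaps no other annotated gene. Mir196a-1 (chr11:96265164-96265265) lies 6192 bp from Hoxb9 on the side of Hoxb13, also outside any other gene, and 51.9 kb from Mir10a. Mir10b (chr2:74726070-74726137) is in introns of Hoxd3 and Hoxd4. Mir196a-2 (chr15:102973350-102973434) lies between Hoxc10 and Hoxc9 within an intron of a long Hoxc5 transcript, and Mir615 (chr15:103014910-103015001) is in an intron of Hoxc5. Mir196b (chr6:52230081-52230165, minus strand) lies within an exon of Hoxa9, 1032 bp from Hoxa10. All tags of the 6 hairpins were sense tags, and no tag matched the antisense strand of any of them.

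The 6 hairpins together were minor species of these libraries. Their 54 distinct tags held 2102 reads under DMSO and 3294 under AICAR, which is 111 and 156 RPM, with a ratio of 1.40 (95% exact interval 1.33 to 1.48). This was 0.0964% of all hairpin reads under DMSO and 0.0994% under AICAR. Of the 54 tags, 35 were present in both libraries, and none matched a miRNA hairpin outside the 6. By comparison, the 7 hairpins of the miR-290 cluster, which mark mouse ES cells, took 28.9% of the hairpin reads under DMSO and 36.8% under AICAR, so the defining miRNAs of the labelled cell type were present.

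Detection differed widely among the Hox clusters. Reads that only the Hoxb hairpins encode numbered 1263 under DMSO, 60.1% (95% Wilson interval 58.0 to 62.2) of the reads of the 6 hairpins, and 1564 under AICAR, 47.5% (45.8 to 49.2). Tags shared by Mir196a-1 of Hoxb and Mir196a-2 of Hoxc held 760 and 1602 reads, or 36.2% and 48.6%. These shared reads made up the larger part of the difference between the libraries.

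The remaining clusters gave few reads. Only 62 reads under DMSO and 110 under AICAR were encoded by Hoxc hairpins alone, 2.95% and 3.34% of the reads. The Hoxd hairpin gave 15 and 14 reads, and the Hoxa hairpin 2 and 4 reads. The level of the reads that only the Hoxb hairpins encode was 66.9 RPM under DMSO and 74.2 RPM under AICAR, and that of the shared tags 40.3 and 76.0 RPM. The smaller share of Hoxb-only reads under AICAR thus went with more shared reads, whose cluster cannot be told apart. The intervals of the shares of the other clusters overlapped between the libraries.

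**Figure D1:**
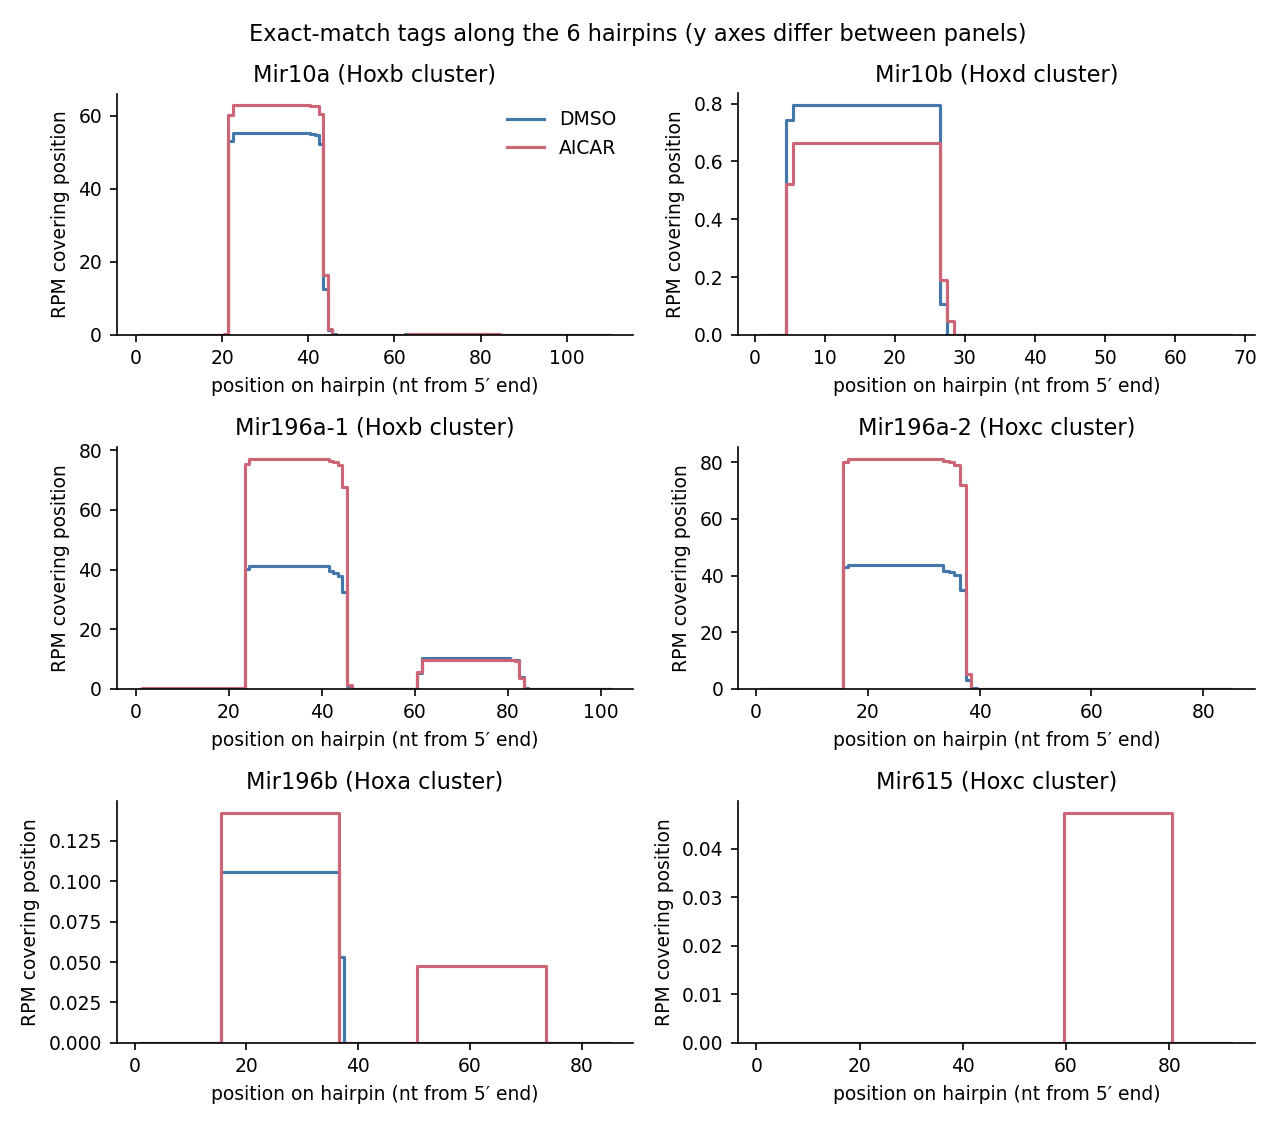
Coverage of the 6 hairpins by tags that match without mismatch, in RPM of clean reads (y axis, with its own scale in each panel) against the position from the 5′ end of the hairpin in nt, for the DMSO and the AICAR library. Mir10a, Mir196a-1 and Mir196a-2 show a block on the 5p arm, Mir196a-1 also shows a 3p block of about equal height in both libraries, and the other hairpins stay below 1 RPM. Tags shared by Mir196a-1 and Mir196a-2 are drawn in full in both panels.

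Of the 6 hairpins, 8 arms had reads, and 3 of these reached the 1 RPM in at least 1 library that was required for a test. An arm was called higher or lower under AICAR when its fold change was at least 2 or at most 0.5 with p at most 0.01. The p came from Fisher's exact test, two-sided, on its reads and all other clean reads, which compares the 2 libraries and not the conditions. By this rule 0 of the 3 arms were higher and 0 were lower, whereas of all 529 arms tested 11.9% were called higher and 9.45% lower. Of the 3 arms 2 had a fold change above 1, as had 57.7% of all tested arms. The interval of the fold change lay above 1 for the same 2 arms and for 39.9% of all tested arms. The median fold change of the 3 arms was 1.14 and that of all 529 arms 1.11, a log2 of 0.15.

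miR-10a-5p, the product of Mir10a at chr11:96317186-96317208, was the most abundant of these arms in the control. It had 1043 reads under DMSO and 1328 under AICAR, that is 55.3 RPM (95% exact interval 52.0 to 58.7) and 63.0 RPM (59.6 to 66.4). The fold change was 1.14 (95% exact interval 1.05 to 1.24, Fisher's exact p = 0.00164), and 48.6% of the 529 tested arms had a larger one. The level of miR-10a-5p was thus slightly higher in the AICAR library, by about as much as the median arm. Relative to all hairpin reads, which were 11.6% of the clean reads under DMSO and 15.7% under AICAR, the same counts gave 0.838 (0.772 to 0.909), so that its direction depends on the denominator.

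miR-196a-5p, encoded at chr11:96265187-96265208 and chr15:102973365-102973386, gave the largest difference of the 3 arms. It had 840 reads under DMSO and 1735 under AICAR, that is 44.5 RPM (41.6 to 47.6) and 82.3 RPM (78.4 to 86.2). Its fold change was 1.85 (1.70 to 2.01, log2 0.89, Fisher's exact p = 4.68e-51), under the 2-fold threshold. A larger fold change was seen for 81 of the 529 tested arms, or 15.3%. Relative to all hairpin reads it was still higher under AICAR, by 1.36-fold (1.25 to 1.48). Counting only the reference tag itself gave 2.11 (1.91 to 2.32), which passes the threshold. At that setting 65 of the 462 tested arms were called higher, and 73 had a larger fold change than miR-196a-5p.

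The order of the leading arms changed between the libraries. miR-10a-5p exceeded miR-196a-5p under DMSO, with ranks of 135 and 149 among the 529 tested arms, and stood below it under AICAR, with ranks of 127 and 116. In both libraries the intervals of these levels did not overlap. Since bulk RNA was sequenced, a difference in the number of cells that hold a miRNA and a difference in its level per cell cannot be told apart.

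miR-196a-1-3p, the opposite arm of the Hoxb copy at chr11:96265225-96265246, had 195 reads under DMSO and 206 under AICAR, 10.3 and 9.77 RPM. Its fold change of 0.945 (0.773 to 1.16, Fisher's exact p = 0.582) was within counting error of 1, and its interval did not overlap that of miR-196a-5p. Relative to all hairpin reads it was 0.695 (0.569 to 0.850), so that whether it differed from 1 depends on the denominator. The 3p arm of the Hoxb copy and the 5p arm that both copies share therefore differed in their change between the libraries.

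The other arms were too rare for a comparison. miR-10b-5p had 15 reads under DMSO and 14 under AICAR, 0.795 and 0.664 RPM, with a ratio of 0.835 whose interval ran from 0.373 to 1.86. miR-10a-3p had 3 and 2 reads, and miR-196b-5p 2 and 3. miR-196b-3p and miR-615-3p were each read a single time, in the AICAR library. For miR-10b-3p, miR-196a-2-3p and miR-615-5p no tag was found, which allows up to 3 reads, or 0.159 RPM under DMSO and 0.142 RPM under AICAR. At this depth the Hoxa and Hoxd hairpins and Mir615 thus gave traces at most, and a change in them was not detectable.

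**Figure D2:**
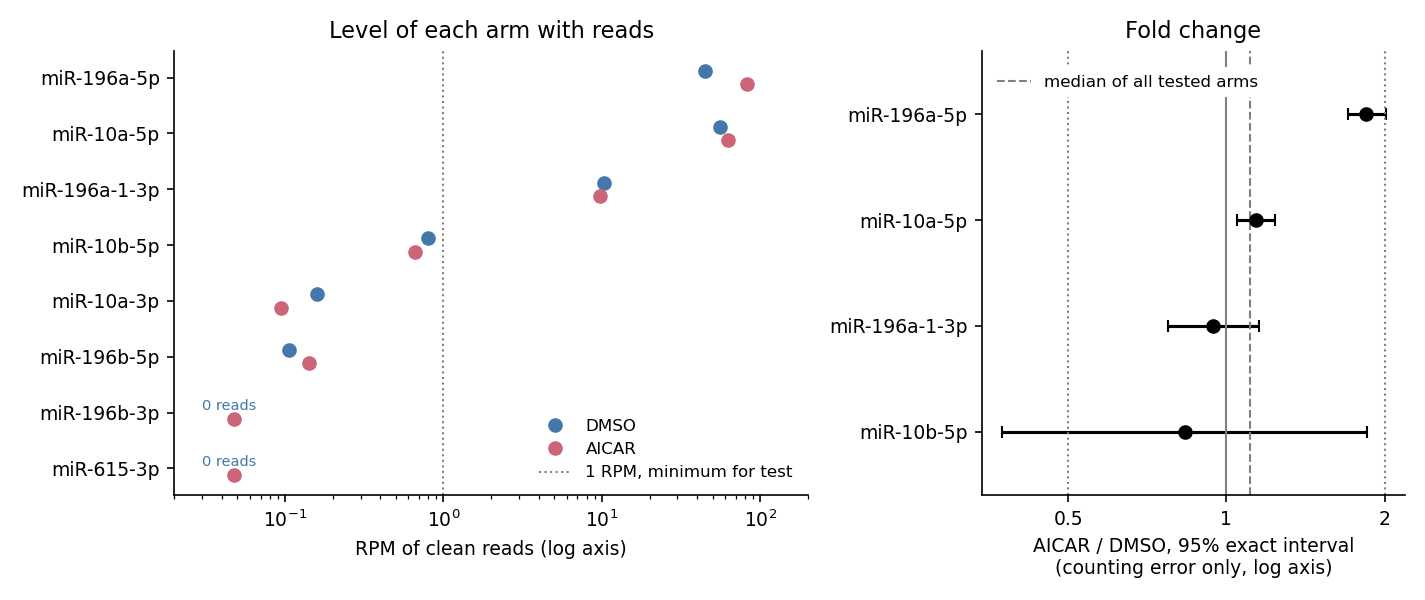
Left: level of each arm with reads in the DMSO and the AICAR library (RPM of clean reads, log axis), where the dotted line marks the 1 RPM required for a test and arms with 0 DMSO reads are marked in words. Right: ratio of AICAR to DMSO (log axis) with 95% exact intervals for counting error, where dotted lines mark 0.5 and 2 and the dashed line marks the median of 1.11 over all 529 tested arms. Only miR-196a-5p, at 1.85, lies clearly to the right of that median.

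The miRNAs nearest to miR-196a-5p, the most abundant of these arms over both libraries, by distance in log2 RPM over the 2 libraries were Mir184-3p, Mir125a-5p and Mir129-2-3p. Mir184-3p, at a distance of 0.195, had 849 reads under DMSO and 1985 under AICAR. Mir125a-5p had 785 and 1425 reads, and Mir129-2-3p 623 and 1691. With 2 libraries such a likeness says only that the level and the ratio were similar.

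Use of the hairpin arms was examined next, since a hairpin can yield a stable RNA from either side of its stem. Mir10a gave almost only its 5p arm, with 99.7% (99.2 to 99.9) of 1048 reads under DMSO and 99.8% (99.5 to 100.0) of 1331 reads under AICAR. All 15 and 14 reads of Mir10b were of the 5p arm as well. For Mir196a-2, 0 of 822 reads under DMSO and 0 of 1711 under AICAR came from the 3p arm. Of these reads, however, 760 and 1602 were in tags that Mir196a-1 also encodes, and only 62 and 109 were in tags of Mir196a-2 alone. The arm share of Mir196a-2 itself is therefore poorly known.

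The Hoxb copy Mir196a-1, unlike its Hoxc relative, did give 3p reads. With the shared tags counted in full, its 5p arm took 80.0% (77.4 to 82.4) of 975 reads under DMSO and 88.8% (87.2 to 90.1) of 1835 under AICAR. Its 3p arm reached 18.8% (16.6 to 21.3) of the reads of miR-196a-5p and miR-196a-1-3p together under DMSO and 10.6% (9.32 to 12.1) under AICAR. These intervals did not overlap. The 3p reads numbered 195 and 206, or 10.3 and 9.77 RPM of clean reads, so on this scale the difference went with the 5p reads. Relative to all hairpin reads, however, the ratio was 0.695 for the 3p arm and 1.36 for the 5p arm. Which arm the difference came from thus depends on the denominator. In the whole data set tags shorter than 21 nt held 9.49% of the hairpin reads under DMSO and 3.81% under AICAR. Without such short tags the 5p share of Mir196a-1 was 79.7% and 88.7%, almost the same.

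On the 5p arm, tags that begin at the first base can be assigned to 1 of the Mir196a copies only where they reach the base that follows the shared 22 nt. Mir196a-2 continues with A and Mir196a-1 with C, and the most-read tags end before this base.
most-read tag of miR-196a-5p: tAGGTAGTttcatgttgttggg
most-read tag of miR-10a-5p: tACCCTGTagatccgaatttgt
most-read tag of miR-196a-1-3p: aCAACGACatcaaaccacctga
miR-196a-1-3p from the RefSeq start: cAACGACAtcaaaccacctgat

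The capitals again mark bases 2 to 8, here of the tags as sequenced. Of the reads of miR-196a-5p, 90.5% under DMSO and 92.3% under AICAR were in 8 tags that both hairpins encode, with a fold change of 1.89 (1.73 to 2.06). Tags that only Mir196a-2 encodes held 62 and 109 reads, with a ratio of 1.57 (1.14 to 2.18). Tags that only Mir196a-1 encodes held 18 and 24 reads, with a ratio of 1.19 (0.621 to 2.33). The intervals of the copy-specific tags overlapped each other and that of the shared tags, so a difference between the copies was not detectable at this depth.

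The extended tags need a caveat that is specific to miR-196a. The 22-nt tag followed by A, as Mir196a-2 encodes it, had 57 reads under DMSO and 105 under AICAR, and the tag followed by C, as Mir196a-1 encodes it, had 4 and 7. The tag followed by T, which neither hairpin encodes, had 73 and 181 reads, more than either encoded form. An untemplated A on an RNA from Mir196a-1 would be read as a tag of Mir196a-2, so the counts for Mir196a-2 alone may include such molecules.

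Untemplated 3′ bases, which enzymes add to finished miRNAs, were frequent on miR-196a-5p. The added T, a U in the RNA, amounted to 12.3% of the reads of the unextended tag under DMSO and 13.0% under AICAR. Over the 160 miRNA arms whose own next base is not U and whose tag had at least 100 reads in each library, the median was 3.07% and 4.12%, and 28 arms under DMSO and 37 under AICAR lay above miR-196a-5p. miR-10a-5p was at the opposite end, with 1 and 2 such reads, 0.137% and 0.218% of the tag reads, and 138 and 143 arms lay above it.

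Tails of up to 3 untemplated bases of any kind gave the same contrast. They made up 11.9% (10.04 to 14.2) of the reads of miR-196a-5p with and without tails under DMSO and 13.1% (11.7 to 14.7) under AICAR. Tails of U alone accounted for 84 of 114 and 198 of 262 of these reads. For miR-10a-5p the tails were 1.60% (1.00 to 2.55) and 1.85% (1.25 to 2.71), mostly of A alone, with 12 of 17 and 20 of 25 reads. The intervals of the tailed share overlapped between the libraries for both miRNAs, and with the tails included the fold change of miR-196a-5p was 1.87.

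The 5′ end sets the seed and was therefore counted separately. For miR-10a-5p, 96.1% of reads under DMSO and 95.7% under AICAR began at the first base of the sequence above, and 3.74% and 4.07% began 1 nt further in. For miR-196a-5p the first base was used by 97.4% and 97.9% of reads. The seeds of both 5p arms were thus nearly uniform in both libraries.

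miR-196a-1-3p had a mixed 5′ end instead. The most-read tag began 1 nt before the RefSeq start, and this end held 101 of 195 reads under DMSO, 51.8% (44.8 to 58.7), and 116 of 206 under AICAR, 56.3% (49.5 to 62.9). The RefSeq start held 92 and 90 reads, 47.2% and 43.7%. The tags of this arm therefore carried different seeds in similar amounts, and the intervals of both shares overlapped between the libraries.

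The 3′ ends of miR-196a-5p did differ between the libraries. Its 22-nt tags held 72.1% (69.0 to 75.1) of the reads of the arm under DMSO and 81.5% (79.6 to 83.3) under AICAR. Its 18-nt tags held 4.05% (2.91 to 5.60) and 0.922% (0.568 to 1.49). The 18-nt tag had 34 reads under DMSO and 16 under AICAR, a ratio of 0.421 (0.217 to 0.784). The 21-nt tag had 99 and 148 reads, a ratio of 1.34 (1.03 to 1.74), and the 22-nt tag 592 and 1395, a ratio of 2.11 (1.91 to 2.32). The intervals of these 3 tags did not overlap each other, and of the 3 only the 18-nt tag was lower under AICAR. The 20-nt tag, with 19 and 20 reads, had a ratio of 0.942 (0.477 to 1.87), within counting error of 1.

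For miR-10a-5p the shares of the main lengths were close in the libraries, with overlapping intervals. Tags of 22 nt held 71.6% under DMSO and 71.9% under AICAR, and tags of 23 nt held 20.3% and 21.3%. Its tags shorter than 21 nt were 0.863% (0.455 to 1.63) and 0.527% (0.256 to 1.08), against 7.62% (6.01 to 9.61) and 2.71% (2.04 to 3.58) for miR-196a-5p. For miR-196a-1-3p these short tags were 6.67% (3.94 to 11.1) and 1.94% (0.758 to 4.89) of few reads. The DMSO library held more short hairpin reads in general, as given above, and with tags of at least 21 nt only, the fold change was 1.95 for miR-196a-5p, 1.14 for miR-10a-5p and 0.993 for miR-196a-1-3p.

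**Figure D3:**
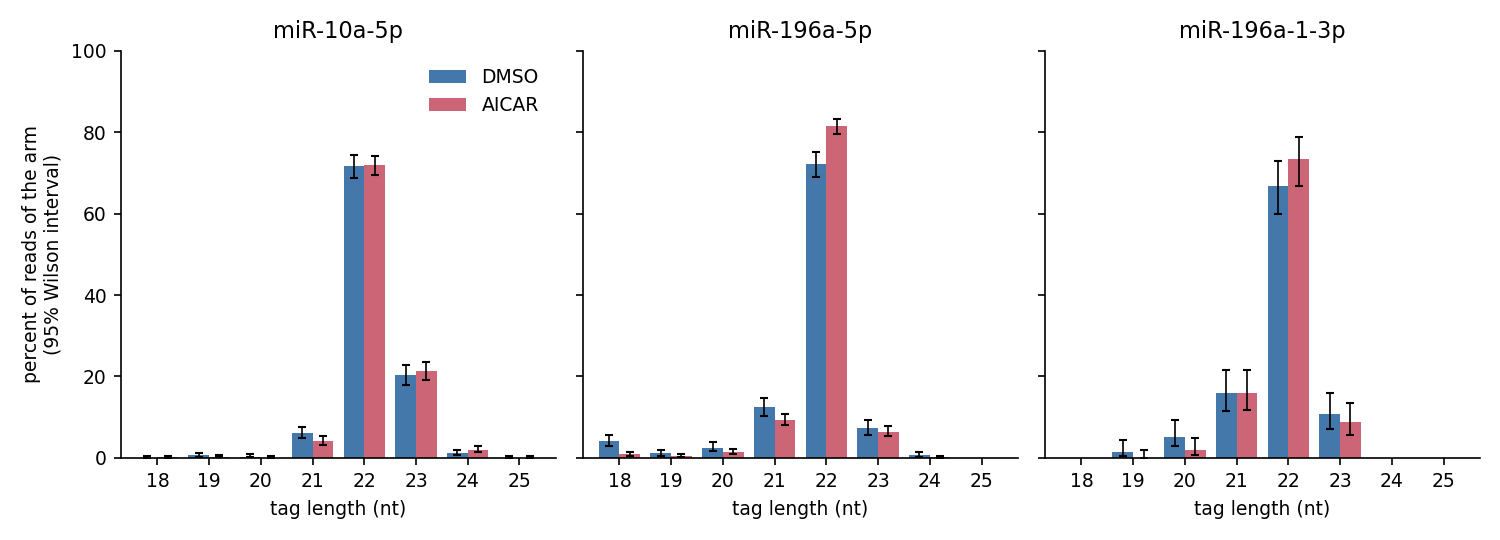
Share of the reads of miR-10a-5p, miR-196a-5p and miR-196a-1-3p by tag length in nt (y axis, percent of the reads of the arm), with 95% Wilson intervals as error bars, in the DMSO and the AICAR library. Tags of 22 nt lead for all 3 arms, and for miR-196a-5p their share was 72.1% under DMSO and 81.5% under AICAR.

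A few tags lay outside the mature arms. A 22-nt tag at positions 2 to 23 of Mir196a-1 ended directly before the first base of miR-196a-5p at position 24, and had 2 reads under DMSO and 3 under AICAR. Tags that lie directly beside a mature arm are known as miRNA-offset RNAs. On Mir10a, 1 tag at positions 3 to 21 ended likewise before the first base at position 22, with 0 and 1 read.

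Because the relatives differ by a single base, the reads of miR-10b-5p and miR-196b-5p were set beside all other single-base variants of the abundant tags. The differing base is in capitals here, in DNA letters.
miR-10a-5p: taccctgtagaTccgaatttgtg
miR-10b-5p: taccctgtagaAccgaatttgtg
miR-196a-5p: taggtagtttcAtgttgttggg
miR-196b-5p: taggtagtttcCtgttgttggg

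The 22-nt tag of miR-10a-5p had 1649 reads over both libraries. Its variant T12A, which is the 22-nt tag of miR-10b-5p, had 12 reads under DMSO and 8 under AICAR. Of the 65 other single-base variants, 55 had 0 reads and all together had 16, with at most 5 reads, for C4T. The tag of miR-10b-5p therefore had more reads than the other 65 variants combined.

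For miR-196 this was not so. The 22-nt tag of miR-196a-5p had 1987 reads over both libraries, and A12C, the tag of miR-196b-5p, had 1 read under DMSO and 0 under AICAR. Of the 65 other variants, 55 had 0 reads and the rest held 45, of which 25 were for G22A at the last base and 4 for T5G. Variants of the last base equal the 21-nt tag with 1 untemplated base, so their reads were also counted among the tails above. At full length miR-196b-5p was thus within the range of the other variants of miR-196a-5p, and its detection rests on 4 more reads of a 21-nt tag, 1 under DMSO and 3 under AICAR. The source of the variant reads was not tested.

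**Figure D4:**
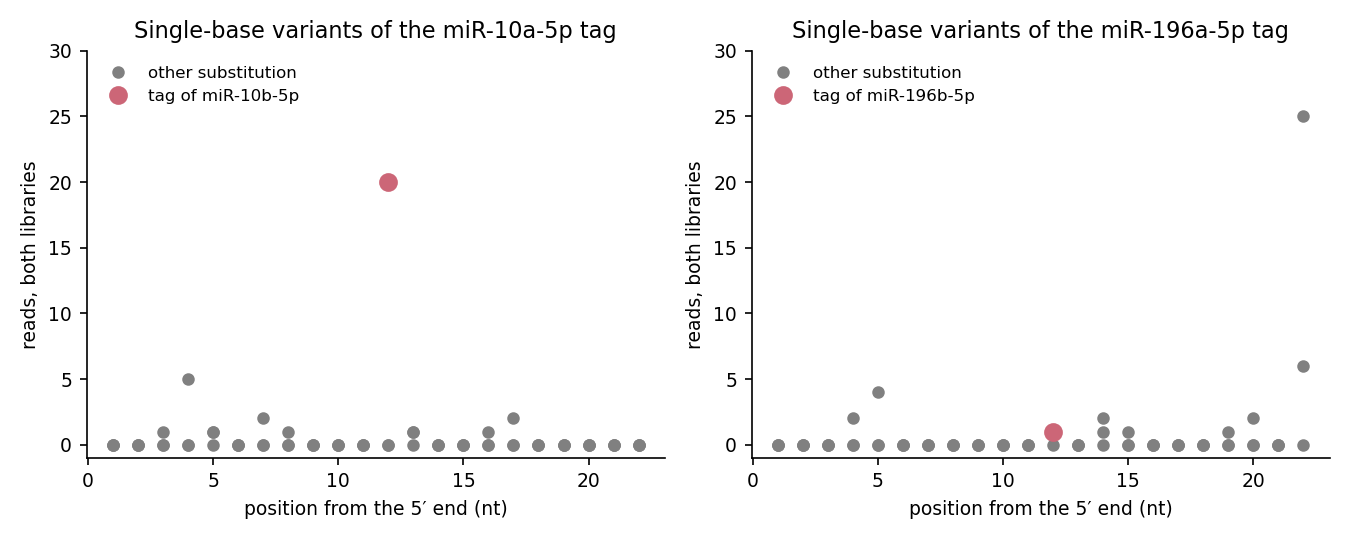
Reads over both libraries (y axis) of each of the 66 single-base variants of the 22-nt tags of miR-10a-5p (left) and miR-196a-5p (right), by position from the 5′ end in nt. The variant that equals the tag of miR-10b-5p has 20 reads at position 12 and stands above all others, whereas the one that equals miR-196b-5p has 1 read and does not, and the highest grey point on the right is the 25 reads at the last base. Points with the same number of reads at a position overlap.

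The miR-10 family has further members outside the Hox clusters, Mir99a, Mir99b and Mir100, whose mature RNAs resemble miR-10 but carry another seed. Their hairpins together had 6894 reads under DMSO and 9987 under AICAR, 365 and 474 RPM, with a fold change of 1.30 (1.26 to 1.34). Nearly all of these were from Mir99b, with 6884 and 9968 reads. No tag was common to these hairpins and Mir10a or Mir10b, so the relatives did not add to the counts of miR-10a-5p.

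Target sequences for both seeds were looked up in the Hox genes, as a description of the annotation and not of the cells. The letters ACTACCT, the complement of the seed of miR-196, were searched on the mRNA strand only and occur in the longest annotated 3′UTR of 9 of 39 Hox genes, 23.1%, and of 5.93% of all 21685 genes with a 3′UTR. The letters ACAGGGT, for miR-10, occur in 4 of 39, 10.3%, against 12.1% of all genes, so only the miR-196 letters were at a higher share in the Hox genes. The median length of these 3′UTRs was 969 nt for Hox genes and 920 nt for all genes.

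Hoxb8 mRNA, which miR-196a is known to cleave in the mouse embryo, lacks this seed match and is paired along nearly the whole miRNA. Its 3′UTR holds the stretch below at chr11:96284888-96284909, plus strand, where capitals mark the 21 of 22 bases that are complementary to miR-196a-5p. The gene lies between Mir196a-1 and Mir10a.
Hoxb8: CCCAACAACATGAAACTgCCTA

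Fragments of Hox mRNAs themselves were scarce in these libraries. Tags that matched the sense strand of a Hox transcript and of no other gene or miRNA hairpin came from 13 of the 39 Hox genes, with 15 reads under DMSO and 7 under AICAR. The highest count was 4 reads, for Hoxc13 under DMSO. By cluster, 3 of 11 Hoxa genes had tags, 4 of 10 Hoxb genes, 3 of 9 Hoxc genes and 3 of 9 Hoxd genes. Small RNA libraries do not measure mRNA levels, so these reads say nothing on Hox expression.

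Markers of cell types other than ES cells were also read, and the fibroblast and neural lists stood above the 6 Hox hairpins in summed level. For fibroblast or mesenchymal cells, 5 of 6 hairpins had reads, with Mir214 at 0, and their summed level was 209 RPM under DMSO and 208 RPM under AICAR, with a ratio of 0.996 (0.954 to 1.04). Within this list Mir145a had 7.21 and 18.02 RPM and Mir143 had 109 and 98.5 RPM. For neural cells 6 of 6 hairpins had reads, with 278 and 429 RPM, a ratio of 1.54 (1.49 to 1.59) that rests on the Mir124 hairpins, at 257 and 410 RPM each, whereas the Mir9 hairpins had between 20.3 and 20.9 RPM under DMSO and between 18.7 and 19.2 RPM under AICAR. The copies of Mir124, of Mir9 and of Mir199 took most or all of their reads from shared tags, counted in full for each copy. Which of these copies gave the reads therefore cannot be told apart. For blood cells 2 of 3 had reads, with Mir223 at 0, at 16.5 and 15.8 RPM, with a ratio of 0.958 (0.818 to 1.12). Of these markers the Mir124 hairpins, Mir145a and Mir451a, the last with only 7 and 21 reads, were thus higher in the AICAR library. The Mir9, Mir143, Mir142 and Mir199 hairpins were not. The ES cell list was higher as well, by 1.73-fold, as was miR-196a-5p. The part of other cell types in the levels of the Hox miRNAs was not tested.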

How the data were processed

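Per the labels and the study's methods, total RNA of each culture was size selected for small RNA, ligated to adaptors, amplified by PCR and sequenced. The authors removed low-quality and contaminant reads and deposited the count of clean reads of each distinct tag, with its length, not normalized and not aligned. Tags are 18 to 44 nt long. The submitters' notes name the mouse build mm9, but the tables carry no coordinates, and tags were matched here to GRCm38 (GENCODE vM21). The sample titled J1_U is labelled DMSO and was used as the control.

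Each tag was matched without mismatch to 1174 hairpins. For every arm the most-read tag, summed over DMSO and AICAR, became its reference, and tags that began within 2 nt and ended within 4 nt of it were counted for the arm. Hairpin copies whose reference tags were identical were merged into 1 miRNA. A tag compatible with more than 1 miRNA counted fully towards all of them. Values are RPM of clean reads. Arms that reached 1 RPM in either library were tested by Fisher's exact test (two-sided), fold changes have 95% exact binomial intervals, and shares have 95% Wilson intervals. A count of 0 was taken to allow up to 3 reads. All arms with a read were named, together with the 3 tested arms nearest to miR-196a-5p in log2 RPM. The members and lists were chosen with earlier results of these data known, and the 3′UTR, substitution and tail counts were added after seeing the data. Alternatives were other denominators (hairpin reads, TMM, median-ratio size factors), 1 mismatch, other limits on tag ends and length, RefSeq mature sequences, other filters and p thresholds and, chosen after seeing the data, untemplated tails. Some results on single Hox genes are not reported here. The steps were tested on simulated data. Python 3.11.15, numpy 2.4.6, scipy 1.17.1, matplotlib 3.10.9, R 4.3.3 and edgeR 4.0.16 (TMM factors only) were used.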

Additional observations from a re-analysis of the deposited data

How the results depend on the processing

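The fold change of miR-196a-5p was above 1 under every alternative run, from 1.36 relative to all hairpin reads to 2.11 when the reference tag alone was counted, with 1.69 by TMM and 1.67 by median-ratio. With the reference tag alone it passed the 2-fold threshold, so that 1 of the 3 tested arms of these hairpins instead of 0 was called higher. At this setting 65 of all 462 tested arms were called higher and 49 lower, and 73 had a larger fold change than miR-196a-5p. Under any alternative 0 arms of these hairpins were called lower. miR-10a-5p turned to 0.838 relative to all hairpin reads, and was 1.04 by TMM and 1.03 by median-ratio, where the interval included 1. miR-196a-1-3p turned to 1.03 with tags that share the 5′ end of the reference tag and to 1.14 with the reference tag alone, both with intervals that included 1, and was 0.695 relative to all hairpin reads, with an interval below 1. The 5p share of Mir196a-1 moved to 89.0% under DMSO and 93.8% under AICAR with the reference tag alone. Of the 3p reads of Mir196a-1, the reference tag held 73 of 195 under DMSO and 93 of 206 under AICAR. Of its 5p reads, the reference tag held 592 of 780 and 1395 of 1629. Ratios relative to all hairpin reads are lower by construction, since hairpin reads were 11.6% of the clean reads under DMSO and 15.7% under AICAR. The cause of the other shifts was not tested. The ratio of all reads of the 6 hairpins fell from 1.40 to 1.03 (0.976 to 1.09) relative to all hairpin reads, with an interval that included 1. All other values of the 6 hairpins that were run under the alternatives kept their direction and their side of the thresholds. Ratios of single tags and of the Mir196a copies, and shares by Hox cluster, tag end, length and tail, were not run under them.

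Over all tested arms, 63 were called higher and 50 lower, against 22 and 114 relative to all hairpin reads, 48 and 64 by TMM, 45 and 65 by median-ratio, and 76 and 30 with tags of at least 21 nt. The median fold change of all arms was 1.11, and 0.816 relative to all hairpin reads. Alternatives with replicates left out could not be run, and no spread between cultures could be estimated. No paired analysis was possible because each condition has 1 library. Depth limits the comparison of the Hoxa, Hoxd and Mir615 hairpins, which had at most 15 reads in a library.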
